A study of Homo sapiens with 4 samples.

Results

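The regions described here are the peaks of HA-tagged SOX4 in 11 stretches of the genome outside chromosome 6 that are known for their tRNA genes. They were chosen by position, as every peak of the 3 deposited peak lists that overlapped one of 11 windows on hg19. Merging peaks with 1 bp or more in common gave 69 regions from 183 peaks, out of 862 regions and 1558 peaks in all. The windows had been drawn with the peaks in view, so the presence of peaks and their height over input are description, and no test was made on them. Gene positions on hg19 were not used here, so that the windows hold tRNA genes is background and was not checked peak by peak.

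The cells were U251, an established human glioblastoma line, infected with a virus to overexpress SOX4 with an HA epitope tag and taken 3 days later. All samples carried the overexpression. SOX4, an HMG-box transcription factor, was immunoprecipitated 3 times with an antibody to HA (IP 1, IP 2 and IP 3), each from 150 µg of chromatin, and the 1 input came from 10 µg. The labels call the immunoprecipitations independent but do not say that they came from separate infections, so the spread below is that between immunoprecipitations and may be technical. Cells without HA-SOX4, and endogenous SOX4, were not analysed here.

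Transfer RNA genes are short and are transcribed by RNA polymerase III. Their promoter lies inside the gene, in the A box and the B box, where the factor TFIIIC binds and from where it brings TFIIIB to the start. The genes often lie in clusters, in which copies of 1 gene can be identical. The title of the series names the repression of specific tRNA genes by SOX4 as its question. In the gene names used below, TR is followed by the amino acid letter and the anticodon, so TRC-GCA is a cysteine tRNA gene, and genes with the same first number after the anticodon encode the same mature tRNA.

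Of the 11 windows, all of which enter the totals, 10 are described one by one. On chromosome 17 they ran from 8.02 to 8.135 Mb, from 37.015 to 37.03 Mb and from 73.028 to 73.033 Mb, and are called here by the genes known to flank them, ALOXE3-PFAS, RPL23-LASP1 and KCTD2-ATP5PD. The chromosome 5 window ran from 180.52 to 180.655 Mb, that on chromosome 11 from 59.315 to 59.336 Mb, that on chromosome 16 from 3.198 to 3.245 Mb and that on chromosome 14 from 21.075 to 21.155 Mb. On chromosome 1 the proximal window ran from 145.3 to 149.7 Mb and the FCGR window, named after its immunoglobulin receptor genes, from 161.36 to 161.6 Mb. The chromosome 7 window ran from 148.99 to 149.39 Mb.

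The peak calls used 24037735 tags for IP 1, 23683012 for IP 2, 19228143 for IP 3 and 28755427 for the input. The windows held 65 of the 627 peaks of IP 1 (10.4%, exact 95% Clopper-Pearson interval 8.09% to 13.0%), 64 of the 524 of IP 2 (12.2%, 9.53% to 15.3%) and 54 of the 407 of IP 3 (13.3%, 10.1% to 17.0%). These intervals cover counting error only. They treat peaks as independent, which close neighbours are not, so they may be too narrow. They also take no account of the windows having been drawn with these peaks in view, so the shares are description. Median fold enrichment, the ratio of read pileup at the summit to local input background with 1 added to each, was 8.84, 8.06 and 8.44 for the peaks in the windows and 6.36, 6.52 and 6.91 for all peaks of the same lists. The peaks in the windows stood on 35, 29.5 and 30 reads at the median summit, and on 13 at the least.

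Of the 69 regions, 49 held a peak of all 3 immunoprecipitations, 11 of exactly 2 and 9 of only 1. That is 71.0% in all 3 lists, beside 30.5% over all 862 regions of the series. Since the windows were drawn with these calls known, nothing is read from the difference. Among regions on the short arm of chromosome 6, between its first and last dense cluster, 53 of 82 were in all 3 lists. Dense clusters were themselves defined by neighbouring regions of all 3 lists, so this share follows in part from that definition. IP 3, the smallest library, was the missing one in 8 of the 11 regions of 2 lists and gave none of the 9 regions of a single list. Over the series IP 3 was the missing one in 94 of 159 and gave 77 of 440.

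Over these 49 regions the medians for IP 1, IP 2 and IP 3 were 10.2-fold, 8.62-fold and 8.56-fold. IP 1 gave the highest fold in 24 of them, IP 2 in 16 and IP 3 in 9, and IP 3 gave the lowest in 26, IP 2 in 15 and IP 1 in 8. Over all 263 regions of the series in all 3 lists, the highest was IP 1 in 106, IP 2 in 102 and IP 3 in 55. The lowest was IP 3 in 125, IP 2 in 76 and IP 1 in 62. In the windows, the median coefficient of variation of a region's fold over the 3 was 15.5%. The counting error of reads at the mean summit pileup alone gave a median of 17.2%. Over the 263 regions of the series these medians were 15.5% and 18.3%. In 19 of the 49 regions the observed variation was above that of counting. These regions had to pass the threshold in all 3 lists and share 1 input, so the variation is that of selected regions. In 31 of the 49 the summits differed by no more than 50 bp, and their median range was 41 bp. Over the series it was 165 of 263, with a median range of 37 bp, so close summits are not particular to the windows.

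Windows with many tRNA genes differed widely in the number of SOX4 regions. To set regions beside genes, tRNA genes were counted between flanking genes in the gene order of the RefSeq table on GRCh38.p14, with no position compared with a peak. The ALOXE3-PFAS stretch has 18 tRNA genes and its window held 13 regions of all 3 lists, KCTD2-ATP5PD has 3 genes and 3 such regions, and RPL23-LASP1 has 3 genes and 2. The chromosome 5 stretch, from RPL13P10 to RACK1, has 17 genes and 9 regions of all 3 lists, and the chromosome 11 stretch, from OR4D9 to OSBP, has 8 genes and 4. Regions were fewer per gene on chromosome 14, with 14 genes between RNASE12 and ANG and 4 regions, and on chromosome 16, with 14 genes between ZNF213 and ZNF200 and 3 regions. The FCGR stretch has the most genes, 32, and its window held 4 regions of all 3 lists.

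**Figure D1:**
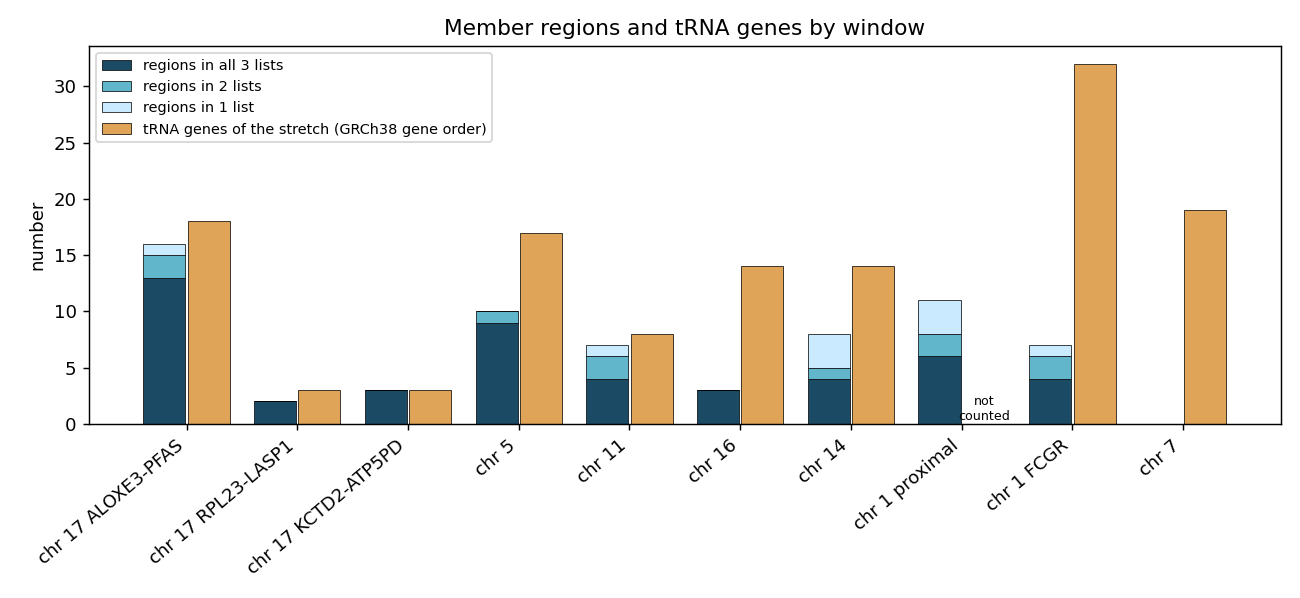
Number of SOX4 regions in each of 10 windows (stacked bars: regions found in 3, 2 or 1 of the 3 immunoprecipitations) beside the number of tRNA genes between the flanking genes of the same stretch in GRCh38 gene order (orange bars). The ALOXE3-PFAS window has 16 regions to 18 genes, the FCGR window 7 to 32 and the chromosome 7 window 0 to 19.

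The chromosome 7 window held no peak of any immunoprecipitation. The stretch from ZNF783 to KRABD3 has 19 tRNA genes, of which 18 are TRC-GCA, the cysteine tRNA genes, and 1 is TRS-AGA, a serine tRNA gene, and may run past the window. The whole table has 29 TRC-GCA genes. The nearest regions outside the window lay 7552 kb below it, in 2 lists, and 675 kb above it, in 1 list, and widening the window by 25 kb on each side added none. The RPL23-LASP1 window, also known for cysteine tRNA genes, did hold SOX4 regions. Its stretch has 3 tRNA genes, all 3 TRC-GCA, and the window held 2 regions, both in all 3 lists. A site below the calling threshold is not listed, so the chromosome 7 genes are not shown to be free of SOX4.

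Repeated gene copies were unequally shared among the stretches. On the FCGR stretch, 24 of 32 tRNA genes share their mature sequence, by name, with another gene of the stretch, on chromosome 5 it is 12 of 17, and on chromosomes 14 and 16 it is 5 of 14 each. On the ALOXE3-PFAS stretch it is 2 of 18, on chromosome 7 3 of 19 and on chromosome 11 0 of 8. The names concern the mature tRNA only, and the sequence around the genes was not examined. Reads that lie wholly within identical sequence cannot be told apart, and the sources used here do not say how such reads were handled. Their part in the missing regions was not tested. Copies outside a gene's own stretch were not counted. For example, TRK-TTT3-5 of ALOXE3-PFAS shares its mature sequence, by name, with TRK-TTT3-4 of chromosome 11. The counts therefore do not give the number of genes with an identical copy anywhere in the genome.

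The ALOXE3-PFAS window held the largest set, 16 regions with 48 peaks over 108 kb. Most stood in close groups. The first group of 4 lay from 8022397 to 8024416, with summits 572, 590 and 608 bp apart. Its second region, at 8022944 to 8023220, was the highest of the group at 13.3-fold in IP 1, 9.64-fold in IP 2 and 10.9-fold in IP 3. The first, at 8022397 to 8022640, had a mean of 8.44 ± 0.60-fold (SD, n = 3) and the third, at 8023509 to 8023843, one of 8.41 ± 1.03-fold. The fourth, from 8024167 to 8024416, was found in IP 1 at 5.79-fold and in IP 2 at 4.88-fold and was not called in IP 3. A lone region followed from 8028913 to 8029229, at 10.7 ± 0.69-fold, and a pair from 8042065 to 8042962, of which the first was in all 3 lists at 8.17 ± 0.69-fold and the second lacked IP 3.

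The highest regions of this window were a pair at 8089514 to 8089829 and 8090026 to 8090676. The first gave 14.1-fold in IP 1, 14.9-fold in IP 2 and 13.8-fold in IP 3, with pileups of 72, 63 and 59 reads, the tallest of any region in the windows. The second gave 13.5-fold, 17.6-fold and 14.8-fold, and at 651 bp was the third widest of all. Its summits differed by 281 bp between immunoprecipitations. The neighbour from 8090804 to 8091103 reached only 5.63 ± 0.71-fold, although its pileups of 36, 44 and 38 reads were near those of the first group. Its local input background was 4.20 to 4.85 times the genome average.

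The last 5 regions lay from 8124112 to 8130516. A row of 4, with summits 625, 708 and 622 bp apart, reached 11.0 ± 0.59-fold, 9.00 ± 0.26-fold, 11.0 ± 1.55-fold and 7.68 ± 0.60-fold in order of position, and all 4 were in all 3 lists. The second of them varied least of all 49, with a coefficient of variation of 2.9%. Beyond them a region of 1097 bp, the widest in any window, joined 7 peaks between 8129420 and 8130516. IP 2 gave 3 separate peaks there, with summits at 8129571, 8130015 and 8130352, and IP 1 and IP 3 gave 2 each. The highest peak was the middle one in IP 1 (12.3-fold) and IP 3 (11.3-fold) and the last in IP 2 (11.4-fold). A peak from 8076721 to 8076909 was found in IP 2 alone, at 4.89-fold.

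In gene order the ALOXE3-PFAS stretch has 3 tRNA genes between ALOXE3 and HES7 (a lysine, a glutamine and a leucine tRNA), 4 between HES7 and PER1, 4 between TMEM107 and BORCS6, 4 between AURKB and CTC1 and 3 between CTC1 and PFAS. HES7 is a repressor of the segmentation clock, PER1 a component of the circadian clock, AURKB a mitotic kinase and CTC1 a telomere maintenance protein. The regions lay in groups of 4, 1, 2, 1, 3, 4 and 1, the last being the one of 7 peaks. The genes carry 14 different anticodons, the most of any stretch. No region was placed at a gene.

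**Figure D2:**
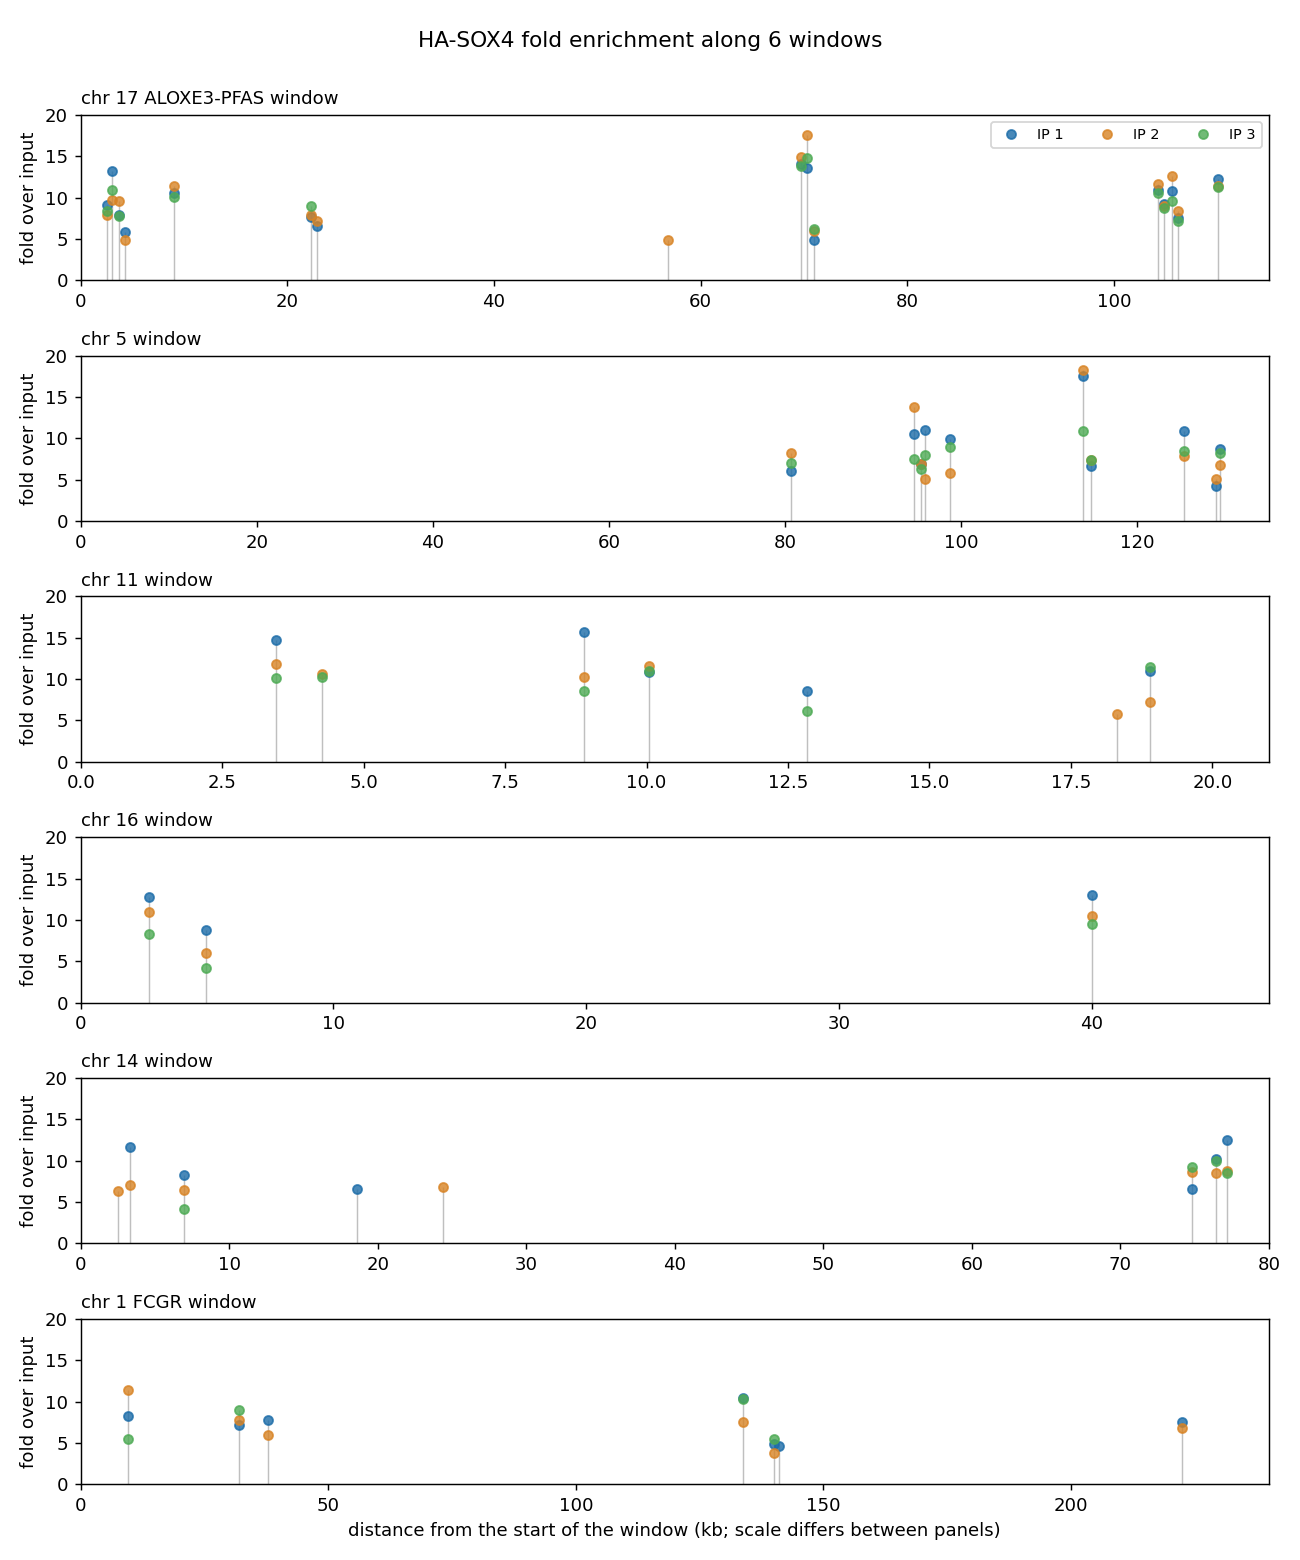
Fold enrichment over input in IP 1, IP 2 and IP 3 (points) for every region of 6 windows, plotted by distance from the start of the window in kb. In the ALOXE3-PFAS window most regions stand in groups, and in the chromosome 5 window the first region is 80.7 kb from the start.

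The RPL23-LASP1 window, 15 kb long, held 2 regions. The region from 37025390 to 37025813 gave 16.1-fold, 17.1-fold and 14.0-fold, and its mean of 15.7 ± 1.62-fold was the highest of all 69, apart from the next by less than its SD. Its neighbour from 37023773 to 37024038 gave 6.84-fold, 5.12-fold and 10.3-fold. The former was the higher of the pair in all 3 immunoprecipitations, and their values did not overlap.

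The KCTD2-ATP5PD window, only 5 kb long, held 3 regions in a row from 73029875 to 73031363, all in all 3 lists. Their summits were 538 and 650 bp apart. The first gave 13.5-fold, 8.75-fold and 7.09-fold from 69, 51 and 44 reads. The others reached 8.17 ± 1.79-fold and 6.61 ± 0.87-fold. IP 1 was the highest in the first 2 of the 3. All 3 stood on a high input background, from 2.88 to 4.24 times the genome average. The stretch has 3 arginine tRNA genes, 2 TRR-CCT and 1 TRR-TCG.

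The chromosome 5 window held 10 regions over 49.1 kb, all but 1 in all 3 lists, and no peak in its first 80.5 kb. The highest lay from 180633702 to 180634122, at 17.5-fold in IP 1, 18.3-fold in IP 2 and 10.9-fold in IP 3. IP 3 was well below the other two there, and the SD of 4.07 was the largest of the 49 regions. Its neighbour from 180634633 to 180634901 was even over the 3, at 6.63-fold, 7.40-fold and 7.38-fold. A row of 3 from 180614585 to 180616067 reached 10.6 ± 3.14-fold, 6.71 ± 0.33-fold and 8.03 ± 3.00-fold. Here the order of immunoprecipitations changed from region to region, IP 2 being the highest in the first at 13.8-fold and the lowest in the third at 5.05-fold. The other regions of all 3 lists, from 180600550, 180618623, 180645187 and 180649308 on, had means of 7.09 ± 1.06-fold, 8.23 ± 2.16-fold, 9.07 ± 1.57-fold and 7.91 ± 1.00-fold. A region from 180648908 to 180649158 lacked IP 3 and reached 4.64-fold. The stretch has mostly valine (8 of 17) and leucine (4 of 17) tRNA genes, and TRIM7, TRIM41 and RACK1, a scaffold protein of the small ribosomal subunit, lie among or beside them.

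The chromosome 11 window held 7 regions in 16.0 kb on the lowest input background of any window. Among its regions of all 3 lists the local background lay between 1.00 and 1.21 times the genome average in each immunoprecipitation, the genome average being the lowest value that the caller allows. The region from 59318041 to 59318904, 864 bp wide, gave 14.7-fold, 11.9-fold and 10.1-fold. IP 3 alone split it into peaks with summits at 59318203 and 59318704, at 6.85-fold and 10.1-fold. The region from 59323781 to 59324058 gave 15.7-fold, 10.2-fold and 8.56-fold, with means of 11.1 ± 0.44-fold at 59324880 to 59325178 and 9.88 ± 2.33-fold at 59333752 to 59334041 for the other two. A region from 59319057 to 59319404 was in IP 2 and IP 3 only, at 10.6-fold and 10.3-fold. In IP 1 the peak of the region before it ended 152 bp short of it. One from 59327730 to 59327962 was in IP 1 and IP 3, and one from 59333245 to 59333399 in IP 2 alone at 5.82-fold. The genes of the stretch are 2 each for phenylalanine, lysine and valine and 1 each for leucine and arginine.

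On chromosome 16 the 3 regions were all in all 3 lists, and IP 1 was the highest and IP 3 the lowest in each. The region from 3200541 to 3200832 gave 12.7-fold, 11.0-fold and 8.32-fold, that from 3202846 to 3203100 gave 8.84-fold, 6.06-fold and 4.13-fold, and that from 3237888 to 3238231 gave 13.0-fold, 10.5-fold and 9.49-fold. The middle one had nearly even pileups of 30, 30 and 28 reads, while its background rose from 1.73 to 3.03 and 4.72 times the genome average. Between the second and the third lay 34.8 kb without a peak. The stretch has lysine TRK-CTT (5), proline (7) and arginine (2) tRNA genes on either side of the olfactory receptor gene OR1F1.

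On chromosome 14 the 8 regions stood on either side of a gap of 50.3 kb. Beyond it all 3 regions were in all 3 lists, with means of 8.14 ± 1.40-fold at 21149732 to 21150016, 9.59 ± 0.92-fold at 21151240 to 21151578 and 9.94 ± 2.18-fold at 21152028 to 21152335. Before it only the region from 21081882 to 21082089 was, at 8.25-fold, 6.52-fold and 4.19-fold. Of the other 4, that from 21078210 to 21078443 gave 11.7-fold in IP 1 and 7.06-fold in IP 2, and 3 were in a single list at 6.29-fold, 6.53-fold and 6.80-fold. Regions of a single list made up 3 of 8 here, against 0 of 10 on chromosome 5. Over all windows they were 9 of 69, and over the series 440 of 862. The stretch has 7 tRNA genes on either side of OR6S1, 5 of the 14 being tyrosine TRY-GTA, and ends at ANG, which encodes the tRNA-cleaving ribonuclease angiogenin.

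The FCGR window of chromosome 1 held 7 regions over 213 kb, in loose order. Those of all 3 lists lay from 161369419 to 161369763 at 8.27-fold, 11.4-fold and 5.44-fold, from 161391796 to 161392053 at 7.14-fold, 7.78-fold and 8.98-fold, from 161493548 to 161493825 at 10.5-fold, 7.56-fold and 10.3-fold, and from 161500070 to 161500263 at 4.83-fold, 3.73-fold and 5.44-fold. The last had the lowest mean of the 49, 4.67 ± 0.87-fold. The other 3 regions of the window, in 1 or 2 lists, reached 4.67-fold, 6.90-fold and 7.14-fold. A gap of 95.5 kb without a peak lay between 161398004 and 161493548. The gene order of this stretch has 27 tRNA genes in front of FCGR2A, an Fc gamma receptor gene, among them repeats of the row TRE-CTC, TRG-TCC, TRD-GTC, TRL-CAG and TRG-GCC. Whether the gap holds these repeats was not examined, since no hg19 gene positions were used.

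The proximal window of chromosome 1 was 4400 kb long and held 11 regions, 6 of them in all 3 lists. Of these 11, 5 lay in a row from 145395278 to 145399511. The strongest was that from 145399114 to 145399511, at 15.4-fold, 11.8-fold and 12.0-fold, followed by that from 145396649 to 145397081 at 10.9-fold, 8.65-fold and 6.58-fold. Between them, that from 145397783 to 145398040 reached only 5.87 ± 0.41-fold from 42, 34 and 30 reads. Farther on, the means were 7.99 ± 0.90-fold at 149298476 to 149298720 and 9.73 ± 0.49-fold at 149684050 to 149684263. The region from 149223740 to 149224187, at 4.99-fold, 4.33-fold and 7.40-fold, had the only background of 5 or more times the genome average among the 69, 6.06 in IP 2 beside 3.46 in IP 1 and 1.97 in IP 3, where the summits lay up to 151 bp apart. A peak of IP 1 alone at 148000756 to 148000918 was at least 1222821 bp from any other region of the window. The 5 regions of 1 or 2 lists had mean folds of 3.68 to 8.03. This part of chromosome 1 is rich in duplicated segments and was rebuilt between hg19 and GRCh38, so no tRNA genes were counted for it.

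SOX4 regions in these windows often stood side by side. Of the 69 regions, 42 (60.9%) had another within 1 kb, in 16 groups of 2 to 5, and 27 stood alone at that distance. In the stretch of chromosome 6 between its dense clusters it was 31 of 82 (37.8%), and of the other 711 regions 38 (5.34%). These shares follow from how the windows and the chromosome 6 stretch were drawn and were not tested. Neighbours within 1 kb had summits 411 to 1272 bp apart, with a median of 646 bp, and the smallest gap between regions was 127 bp. Reads extended by 155 to 179 bp from neighbouring sites can meet, so regions this close are not independent of one another.

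Windows were then compared by the median fold of their regions of all 3 lists in each immunoprecipitation. Every window was measured in the same 3 immunoprecipitations, so windows were set against each other within each of them, without a test, since the windows were drawn with the folds known. Paired in this way, 3 values could not give a two-sided exact permutation p below 0.25. The RPL23-LASP1 window, with only 2 such regions, had medians of 11.5, 11.1 and 12.1. Chromosome 11 had medians of 12.9, 10.9 and 10.6, and ALOXE3-PFAS 10.6, 9.64 and 9.52. The FCGR window had 7.70, 7.67 and 7.21, below every value of those 2 windows. Chromosome 14, at 9.24, 8.57 and 8.91, was also above the FCGR window without overlap. The medians of chromosome 5 (9.91, 7.40 and 7.98), KCTD2-ATP5PD (10.2, 7.24 and 7.09), chromosome 16 (12.7, 10.5 and 8.32) and proximal chromosome 1 (9.09, 8.79 and 7.27) spread more over the immunoprecipitations. Among the 8 windows with at least 3 such regions, 18 of the 28 pairs differed in the same direction in all 3 immunoprecipitations, and 10 pairs did not overlap at all. Chromosome 16 was above chromosome 5 and KCTD2-ATP5PD in all 3, by 2.09 ± 1.53 and 2.33 ± 1.03 in fold (mean difference, SD, n = 3), although their values overlapped. Proximal chromosome 1 was above the FCGR window in all 3, by 0.86 ± 0.70. Chromosome 11 was above each of the other 7 windows in all 3, and these 7 pairs are among the 18. Pairs that share a window are not independent, so the counts of pairs are description. The ratio of the highest to the lowest window median, among these 8 windows, was 1.67, 1.51 and 1.49 in IP 1, IP 2 and IP 3.

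**Figure D3:**
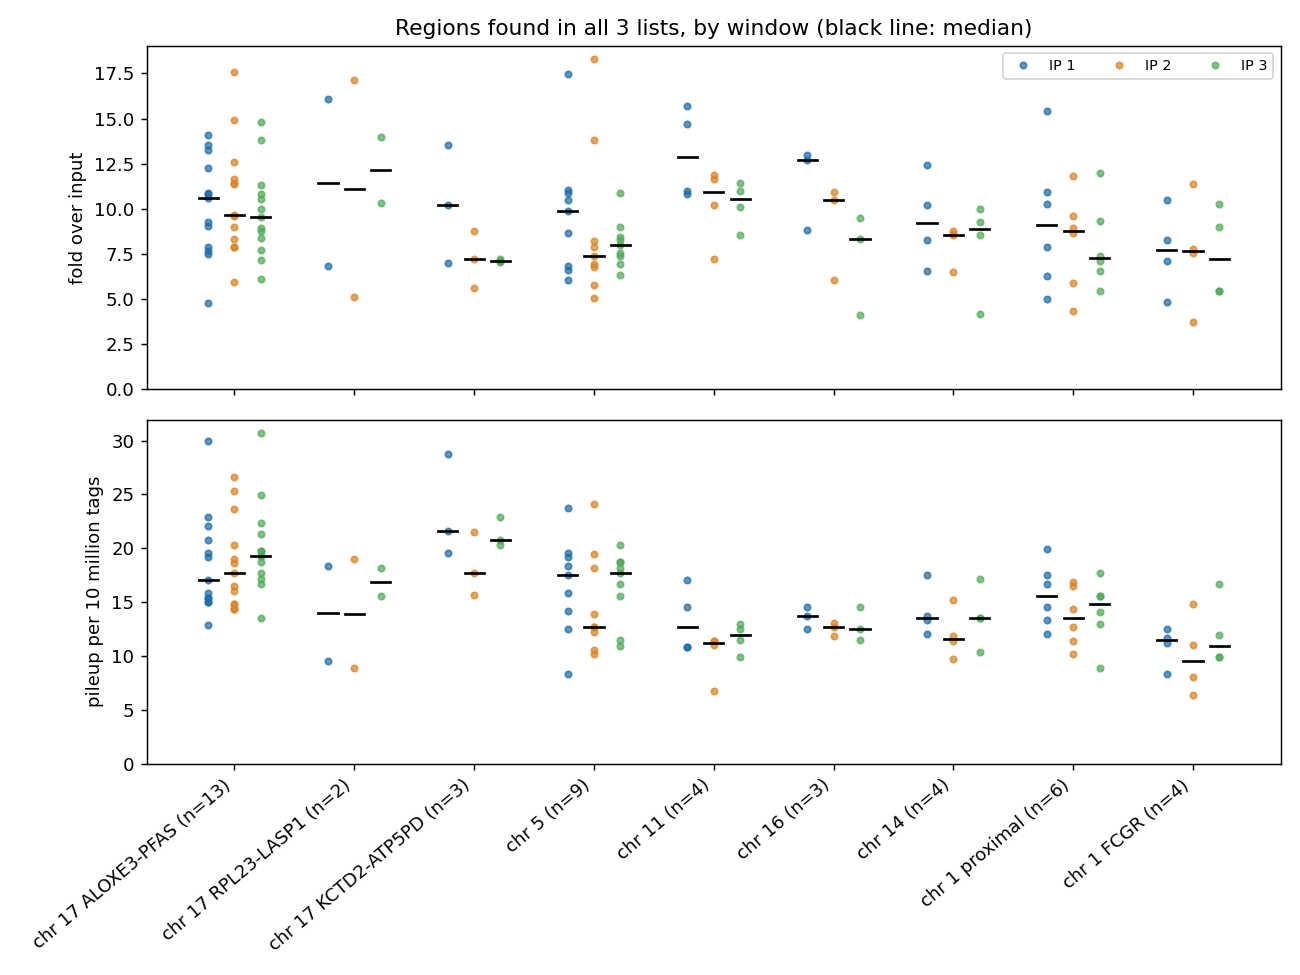
Fold enrichment over input (top) and summit pileup per 10000000 tags (bottom) of 48 of the 49 regions found in all 3 lists, by window and immunoprecipitation, with black lines for medians and n the number of regions. The chromosome 11 window is among the highest by fold and among the lowest by pileup, and the KCTD2-ATP5PD window is at or near the top by pileup only.

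The order of windows by fold was not their order by pileup. Per 10000000 tags the median pileup was 21.6, 17.7 and 20.8 in KCTD2-ATP5PD and 17.1, 17.7 and 19.2 in ALOXE3-PFAS, level in IP 2 and higher in KCTD2-ATP5PD in IP 1 and IP 3. On chromosome 11 it was 12.7, 11.2 and 12.0, and in the FCGR window 11.4, 9.50 and 10.9. The median input background was 3.57 times the genome average in KCTD2-ATP5PD, 2.44 on chromosome 5, 2.25 in ALOXE3-PFAS and 1.01 on chromosome 11. In the FCGR window, the lowest by pileup, it was 1.94. ALOXE3-PFAS was in the upper part of the order on both scales.

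Across the 49 regions, mean fold and mean background had a Spearman's rho of -0.65, and mean pileup and mean background one of 0.52. The fold has the background in its denominator, and both measures share the 1 input, so the 2 values are descriptions. The 19 regions whose background was at least 2 times the genome average in every list had a median mean fold of 8.03 and a median mean pileup of 38.3 reads. The 19 with a background under 2 in every list had 10.7-fold and 29.3 reads.

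**Figure D4:**
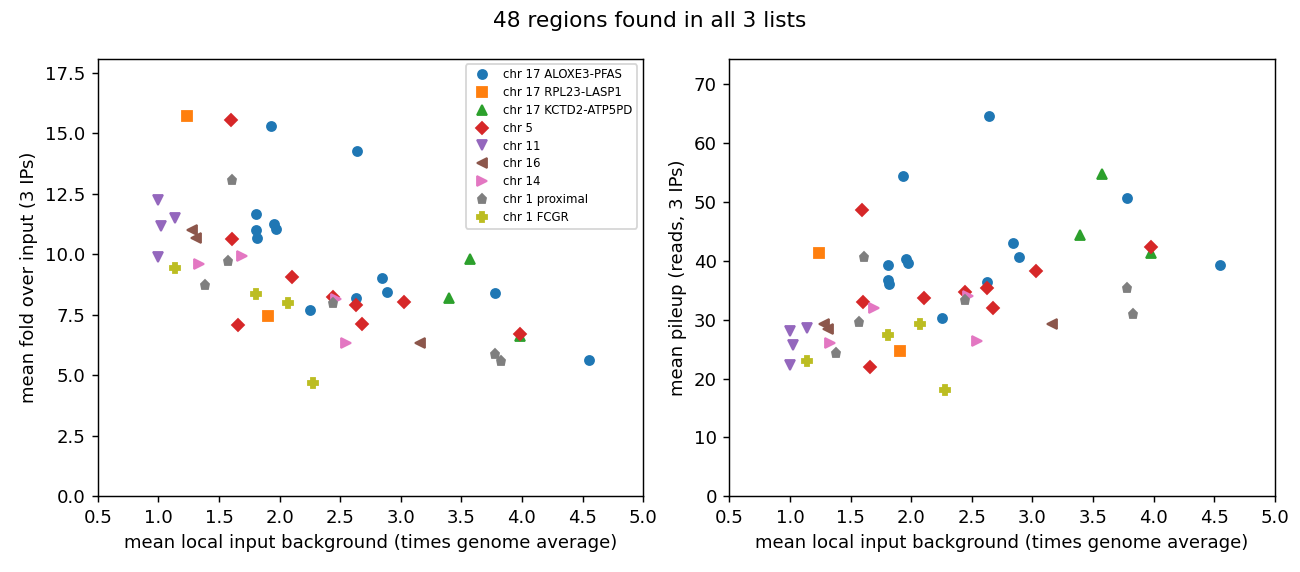
Mean fold over input (left) and mean summit pileup in reads (right) against mean local input background in multiples of the genome average, for 48 of the 49 regions found in all 3 lists, 1 symbol per window. Regions of chromosome 11 lie at the left near 1, and those of KCTD2-ATP5PD between 3.4 and 4.0, with lower folds and taller pileups.

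The regions in the windows found in all 3 lists were set beside such regions elsewhere. By the median of mean folds they lay between the same stretch of the short arm of chromosome 6 and the rest of the series. Their median mean fold was 8.72, with quartiles of 7.91 and 11.0. The corresponding median was 9.04 for the 53 regions of the chromosome 6 stretch and 7.79 for the 161 elsewhere. The order of the windows and chromosome 6 changed with the immunoprecipitation. In IP 1 the median fold was 10.2 in the windows and 9.56 on chromosome 6, and in IP 3 8.56 and 8.45. In IP 2 the windows were lower, at 8.62 and 8.93. The highest mean was 15.7 in the windows, 15.9 on chromosome 6 and 26.7 elsewhere. Median mean pileup was 33.7 reads in the windows, 29.7 on chromosome 6 and 29.0 elsewhere, and median background 2.07, 1.67 and 1.98 times the genome average.

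At the calling threshold, a q of 0.05, the weakest peaks in the windows had a −log10 q of 2.10 in IP 1, 2.09 in IP 2 and 4.05 in IP 3, and the lists as a whole went down to 1.55, 1.56 and 1.87. Widening the windows by 25 kb added no region. Their edges had been drawn with the peaks in view, so nothing is read from this. The nearest region outside any window lay 107 kb below the RPL23-LASP1 window, was in all 3 lists and reached 11.0-fold. The next nearest lay 207 kb below the proximal window of chromosome 1, in 1 list at 4.20-fold.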

How the data were processed

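Peak lists of 3 anti-HA immunoprecipitations were analysed, each called by the authors with MACS2 2.1.1.20160309 against 1 input, per the file headers, on alignments stripped of duplicates, with no model, extensions of 163, 155 and 179 bp and a q threshold of 0.05. Reads of 50 bases were single-end, per the labels' protocols. Per the submitters' processing notes, Bowtie2 2.3.3.1, Picard 2.10 and hg19 were used. As deposited, the pileup is a signal that counts extended reads over the summit, the fold is a ratio of that pileup to the local background, each with 1 added, and the p and q values, as −log10, are the authors' own.

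Peaks overlapping by 1 bp were merged. Where a list had several peaks in a region, the highest fold was taken. The local background was recovered as pileup plus 1, divided by fold, minus 1, and set against the genome average, tags times extension over 2.7e+09 bp. Pileups per 10000000 tags are not corrected for the extension. Merging was tested on simulated lists in 10 runs (Python 3.11.15, pandas 2.3.3, scipy 1.17.1). Every region in all 3 lists could be named, as could the highest of the others in each window. Of the windows, 1 enters the totals and is not reported here by itself. The members and lists were chosen with earlier results of these data known. An hg19 genome or annotation, and tRNA sequences, were not used here, so the planned search for B box and SOX motifs was not run. Tags limit precision: peaks rested on 13 or more reads.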

Additional observations from a re-analysis of the deposited data

How the results depend on the processing

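The number of regions in the windows (69) and of those in all lists (49) stayed within 1.5 times under a q of 1e-10, a minimum fold of 4, a 50% overlap, windows widened by 25 kb and each left-out immunoprecipitation, the last giving 65 to 70 regions and 51 to 58 common to the remaining lists. Widening by 25 kb could add nothing, as the nearest region outside a window lay 107 kb away. Leaving out 1 list asks for a peak in fewer lists, so the common count could hardly fall below 49. Nothing is read from either. At a q of 1e-10 there were 58 and 37. Their median mean fold, 8.72, was 9.73 at a q of 1e-10, which removes weak peaks, and 8.67 to 9.01 with 1 immunoprecipitation left out. Among the windows with at least 3 regions in all lists, the ratio of the highest to the lowest window median, 1.41 on mean folds, was 1.46 to 1.66 with 1 left out, chromosome 11 being the highest of these windows each time, and the lowest window changed between chromosome 5, KCTD2-ATP5PD and FCGR. Keeping only regions with a background under 2 times the genome average, a choice made after seeing the data, left 31 regions, 19 in all lists, a median of 10.7 and a ratio of 1.16. This choice selects on the denominator of the fold and leaves 4 windows in the ratio. KCTD2-ATP5PD, FCGR, chromosome 14 and chromosome 16 drop out of it, and the cause of the change was not tested. By pileup in place of fold, all 10 windows with regions changed rank. The FCGR window kept 1 of its 4 regions at a q of 1e-10, and RPL23-LASP1 1 of 2. With the peaks of a list averaged, the region of 7 peaks from 8129420 to 8130516, at 11.7-fold, was 9.25-fold, and 47 of the 49 regions have 1 peak per list, so averaging could not move them. Leaving out 1 of 3 values cannot move a region's mean by its SD, so nothing is read from that for single regions. No paired analysis was possible because the immunoprecipitations form 1 group, so no other group shares their numbers. This concerns groups of samples, and windows were compared within each immunoprecipitation. A site missing from a list may lie below the threshold.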
